A study of Mus musculus with 3 samples.

Results

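The collagen chain genes of cells sorted from mouse molars are described here, across 7 gated cell classes and 3 ages. They were taken by name, as every gene whose symbol is Col, a number, the letter a and a number. Membership used no measured value, but the rule was chosen with earlier results of these data known. This gave 44 of the 21446 genes whose identifiers the 3 libraries shared. All 44 held unique molecular identifiers (UMIs) at P15 and at P25, and 43 did at 8 weeks, where Col28a1 had none.

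All animals carried the Pthrp-mCherry knock-in allele, in which the parathyroid hormone-related protein locus drives a red fluorescent protein. PTHrP-mCherry+ cells were sorted from mandibular molars pooled over mice at P15, P25 and 8 weeks, and each age gave a single 10x Chromium library. The study used the reporter to follow cementoblasts, the cells that lay down cementum on the tooth root, and their precursors. The sort follows reporter fluorescence and not a lineage, and the libraries also held keratin-expressing and Ptprc-expressing cells, which were gated here as classes of their own. With 1 library an age, age cannot be told apart from the library, its pool of mice or, for P25, its gene reference.

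Collagens are trimeric extracellular proteins with a triple helix of repeated glycine triplets. The fibrillar types I, III and V make the tensile fibrils of bone, cementum, dentin and the periodontal ligament, and in mineralized tissues type I is the scaffold on which mineral forms. The other families bind to fibrils (the fibril-associated collagens, or FACITs), build networks in basement membranes, form beaded filaments, or span the plasma membrane. Chains are hydroxylated and folded in the endoplasmic reticulum, trimmed outside the cell and cross-linked by lysyl oxidases.

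The 44 genes were found by identifier in the GENCODE annotation of GRCm38 on 15 chromosomes. The 6 type IV genes lay as 3 head-to-head pairs. Col4a1 and Col4a2 on chromosome 8 started at 11312826 and 11312805 on opposite strands and shared 22 bases, Col4a3 and Col4a4 on chromosome 1 were 71 bases apart, and Col4a5 and Col4a6 on chromosome X were 1308 bases apart. In all, 5 collagens overlapped another coding gene, in every case on the opposite strand.

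RefSeq windows of the 250 bases upstream of an annotated start (GRCm38.p6) were matched by symbol for 35 of the 44 genes, with 38 windows in all. The letters TATAAA, searched on both strands, stood in 5 of the 38 windows (13.2%) against 12.4% of all 32851 windows of the same length. CCAAT stood in 13 (34.2%) against 33.8%, and GGGCGG in 22 (57.9%) against 32.7%. These are matches of letters, on windows of which some belong to the same gene, and not binding sites. The 3 windows below are shown because Col11a2, Col13a1 and Col3a1 differed in Ifitm5-expressing cells and belong to the 5 windows with TATAAA (the other two were those of Col10a1 and Col17a1). Each is printed 5′ to 3′ on the strand of the gene, with TATAAA and GGGCGG, or its reverse complement CCGCCC, in capitals. The Col11a2 window lies at chr17:34038888-34039137 on the plus strand, the Col13a1 window at chr10:61979109-61979358 on the minus strand and the Col3a1 window at chr1:45311288-45311537 on the plus strand.
Col11a2: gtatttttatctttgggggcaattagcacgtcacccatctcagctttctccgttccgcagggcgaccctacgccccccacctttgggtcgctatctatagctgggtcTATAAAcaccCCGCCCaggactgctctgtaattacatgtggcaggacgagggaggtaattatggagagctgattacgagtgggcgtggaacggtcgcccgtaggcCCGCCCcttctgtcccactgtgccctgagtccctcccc
Col13a1: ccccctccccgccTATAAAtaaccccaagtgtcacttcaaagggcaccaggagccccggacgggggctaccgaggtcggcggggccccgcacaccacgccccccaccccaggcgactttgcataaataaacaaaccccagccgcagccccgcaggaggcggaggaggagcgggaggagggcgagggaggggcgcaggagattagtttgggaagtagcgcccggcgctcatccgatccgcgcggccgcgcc
Col3a1: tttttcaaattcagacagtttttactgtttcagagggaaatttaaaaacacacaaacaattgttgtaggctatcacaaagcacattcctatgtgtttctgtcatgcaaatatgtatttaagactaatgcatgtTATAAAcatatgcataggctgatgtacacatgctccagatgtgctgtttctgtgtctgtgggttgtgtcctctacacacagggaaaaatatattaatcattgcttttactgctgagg
TATAAA began 143 bases before the RefSeq start of Col11a2, 237 bases before that of Col13a1 and 117 bases before that of Col3a1. The GENCODE start of Col11a2 lies further downstream, at 34039437, so its distance from that start is larger. The Col13a1 and Col3a1 windows end at their GENCODE starts. Col11a2 alone of the 3 also held GGGCGG, at 2 places.

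The libraries held 12926, 8971 and 5192 cells with 188157997, 169712592 and 46234378 UMIs, at medians of 14218.5, 15000 and 8695 UMIs per cell (P15, P25 and 8 weeks, the order used throughout). Pairs of libraries shared 13 to 26 cell barcodes. A cell entered a class when it held at least 2 UMIs of the gate gene, at a level of at least 2 times the mean of its library. This gave 769, 490 and 314 Ibsp cells, 742, 771 and 276 Ifitm5 cells, 229, 680 and 470 Hand2 cells, 226, 258 and 269 Rgs5 cells, 680, 39 and 21 Pappa2 cells, 1296, 853 and 157 Krt14 cells and 756, 204 and 19 Ptprc cells. Cells that passed the Ifitm5 and Ibsp gates counted as Ifitm5 cells. The Ibsp gate was passed by 1341, 1204 and 778 cells, many more than the Ibsp class holds. How many of these are Ifitm5 cells is not given. Cells that passed several other gates (28, 411 and 302 with Ibsp and Hand2, and 182, 132 and 66 with other combinations) and the 8018, 5133 and 3298 cells that passed none were left out of the classes. UMIs of the shared genes were summed over the cells of a class and library and are given as CPM, that is scaled to the total of the sum. These libraries count 3′ ends, so a level was not scaled by transcript length.

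The Ifitm5, Krt14, Ptprc and Rgs5 gates were set beside markers other than the gate gene. Ifitm5, a membrane protein of mineralizing cells, marked the study's cementoblast β type together with Phex, Bglap and Dmp1, whose summed CPM in Ifitm5 cells was 7086, 16170 and 28750. The study lists Dmp1 for both of its cementoblast clusters, so this sum does not separate β from α cells. The keratin list was at 6171, 9791 and 8170 CPM in Krt14 cells and the immune list at 11290 and 9486 CPM in Ptprc cells. For these gates no value of another class is given, so the sums describe the class alone. The Rgs5 gate matched a mural (pericyte and smooth muscle) identity at P15 only. The 6 other mural markers summed to 3492 CPM there, against 328 and 440.5 CPM at P25 and 8 weeks, which lay within the 148 to 562 CPM of the other mesenchymal classes. Collagen calls in Rgs5 cells are therefore given with and without the P25 and 8-week sums, and these cells are called by their gate. The Pappa2 sums of P25 and 8 weeks rest on 39 and 21 cells, and the 8-week Ptprc sum, with under 20 cells, was left out of the fit.

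Collagens took up 2.69% to 12.4% of the shared-gene UMIs in the 15 sums of the 5 mesenchymal classes. Ifitm5 cells at P25 stood highest, with 4.22%, 12.4% and 7.63% at the 3 ages, followed by the Pappa2 cells of P15 at 8.46%, 7.09% and 5.03%. In Krt14 cells the share was 0.42%, 0.41% and 0.20%, and in Ptprc cells 0.51% and 0.93% at P15 and P25. Within single cells the median share was 3.08%, 9.72% and 4.62% for Ifitm5 cells and 0.304%, 0.137% and 0.265% for Krt14 cells.

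Col1a1, which encodes the α1 chain of type I collagen, was the most abundant collagen in 19 of the 20 sums. The exception was the Rgs5 sum of P15, which Col3a1 led with 23.1% of collagen UMIs and in which basement membrane collagens made up 17.5%. Fibrillar chains made up 95.1%, 98.7% and 98.03% of the collagen UMIs of Ifitm5 cells and 86.4% to 91.5% in Ibsp cells. In Ifitm5 cells at P25 and 8 weeks, 2 chains, Col1a1 and Col1a2, were enough to reach 90% of collagen UMIs, where Rgs5 cells of P15 needed 9. Across the 20 sums, 9 collagens stood at 10 CPM or more in every sum and 8 in none.

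**Figure D1:**
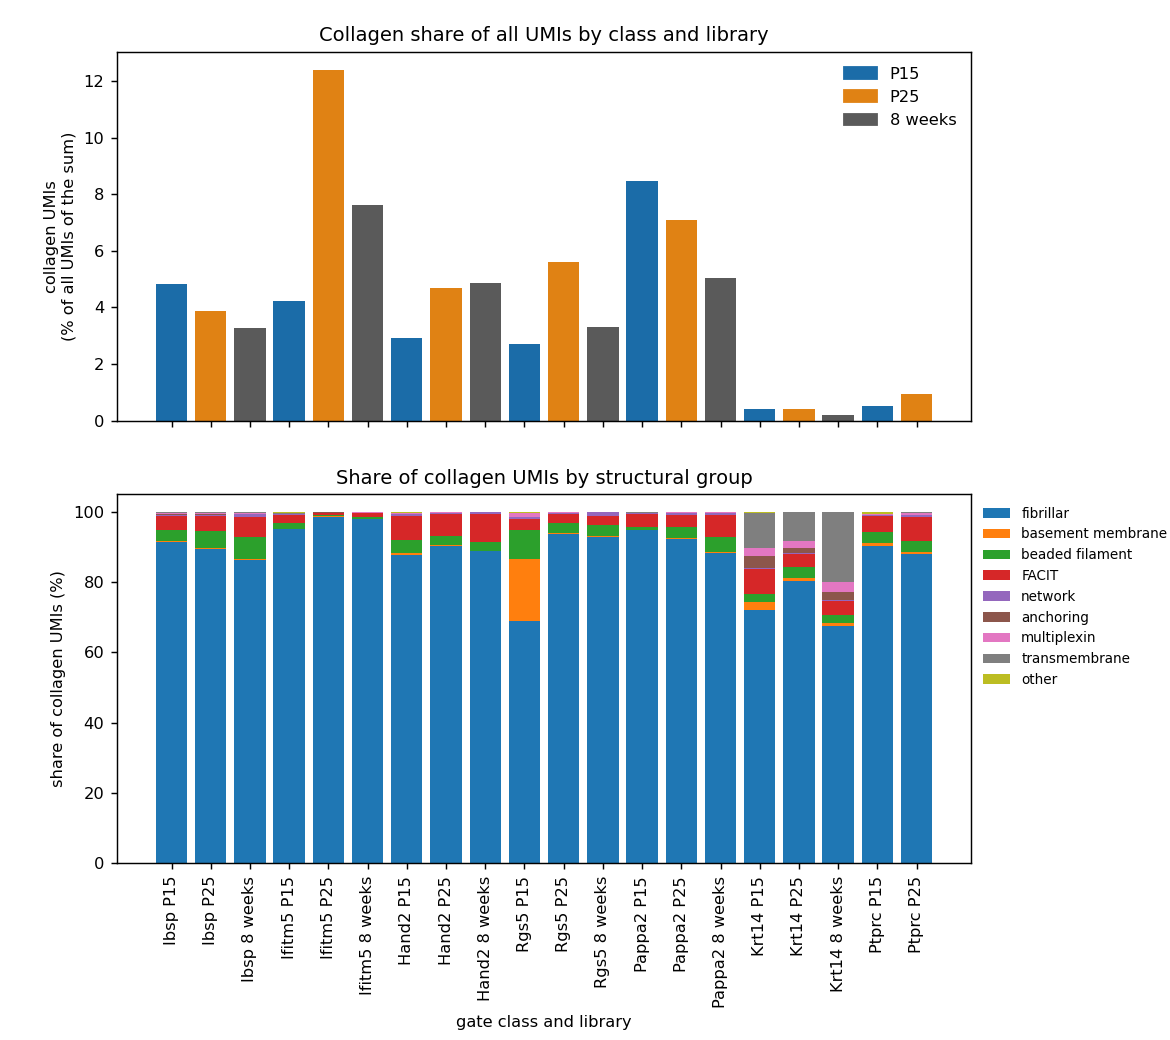
Upper panel, collagen UMIs as a percentage of the shared-gene UMIs (y axis) in each class and library (x axis), coloured by age. Lower panel, the percentage of collagen UMIs that falls to each structural group of chains, as stacked bars. The tallest bar is that of Ifitm5 cells at P25 (12.4%), basement membrane chains are visible in Rgs5 cells at P15 (17.5%), and transmembrane chains are visible in Krt14 cells (9.79%, 8.32% and 19.995%).

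With each cell thinned to 3000 UMIs, a mesenchymal cell held UMIs of a median of 8 to 12 collagens, a Krt14 cell of 3 to 4 and a Ptprc cell of 3 at P15 and P25 (unthinned medians 12 to 16, 6 to 9 and 5 to 7). Thinning left out 338, 146 and 57 Krt14 cells and 0 to 43 cells of each mesenchymal sum. A detected chain is a UMI in the droplet and does not show that the cell made it: Col1a1 had a UMI in 68.9%, 57.0% and 70.0% of the thinned Krt14 cells and in 80.0% and 77.8% of the Ptprc cells (98.2%, 98.1% and 98.1%, and 97.1% and 99.5%, unthinned), which are not the known main sources of type I collagen, against 96.2% to 100% in mesenchymal sums. Where the UMIs in those classes came from was not tested.

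**Figure D2:**
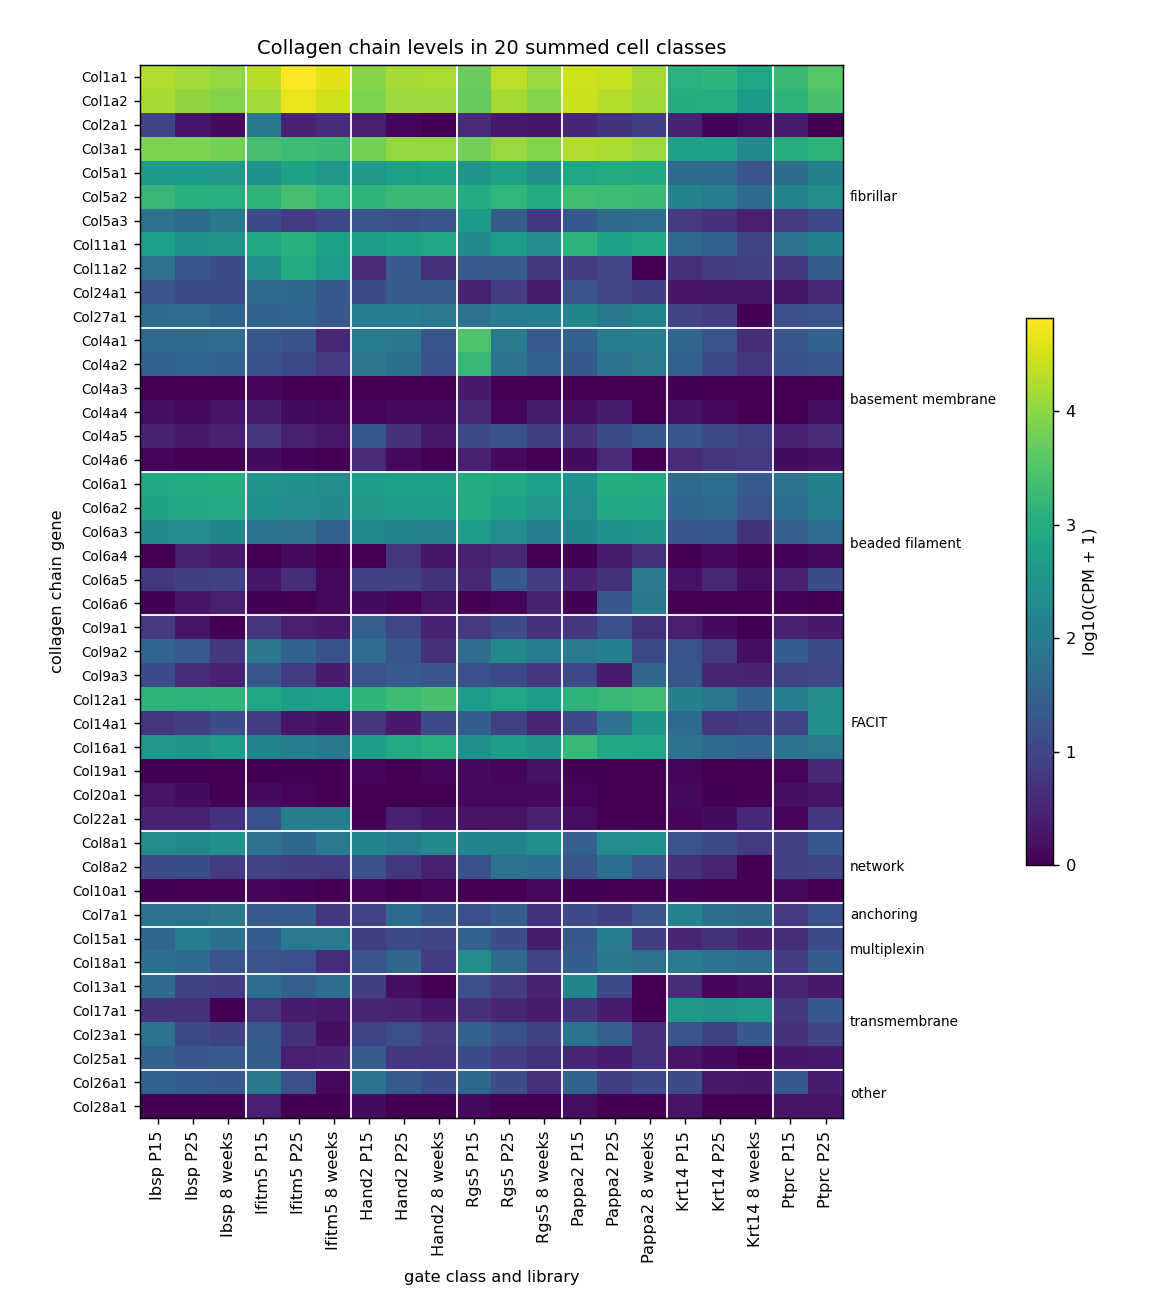
Levels of the 44 collagen genes (rows, by structural group) in the 20 class sums of the fit (columns), as log10(CPM + 1) on the colour scale. The rows of Col1a1, Col1a2 and Col3a1 are brightest, and the separate bright cells are Col4a1 and Col4a2 in the Rgs5 sum of P15, Col11a2 and Col22a1 in Ifitm5 cells and Col17a1 in Krt14 cells.

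Differences between classes were tested across all genes in one fit of the 20 sums with the library as a block (edgeR quasi-likelihood test with Benjamini-Hochberg adjustment). A gene was called at an adjusted p under 0.05 with a log2 fold change above 1 in size. The share of all genes is given beside the calls of this fit. Counts at an unadjusted p, from DESeq2 and from alternative runs of this fit have no such share, so they are not set against all genes. The fit tested 13613 genes and 38 of the 44 collagens, and Col4a3, Col4a4, Col10a1, Col19a1, Col20a1 and Col28a1 fell under its filter on low counts. The libraries are the replicates here and differ in age. For each gene, a p-value rests on the spread left in all 20 sums once class and library are fitted. It does not measure how a given class difference varied over the 3 ages. Fewer cells of a kind and less RNA per cell cannot be told apart in these sums, since a gate may hold several kinds of cell.

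Of the mesenchymal classes, Ifitm5 cells had the most collagens called. Against the other 4 mesenchymal classes, 8 of the 38 collagens tested were higher in Ifitm5 cells, where 4.04% of all genes tested were called higher, and 6 were lower, where 3.46% were. The higher chains were Col22a1, Col11a2, Col2a1, Col13a1, Col24a1, Col15a1, Col1a1 and Col1a2, and the lower ones Col16a1, Col3a1, Col6a3, Col27a1, Col6a2 and Col6a1. The median log2 fold change over the 38 collagens was -0.94, against -0.01 over all genes tested. Without the P25 library 4 of the 14 calls were left, and without the 8-week library 7; Col22a1, Col11a2, Col2a1 and Col24a1 were called in every alternative run.

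Directly against Ibsp cells, Ifitm5 cells were higher in 2 collagens (0.984% of all genes called higher) and lower in 2 (0.448%). These were Col22a1 and Col11a2, and Col3a1 and Col6a1. Ibsp encodes bone sialoprotein, which the study listed among the markers of its cementoblast α type. Ifitm5 cells here include those that also passed the Ibsp gate, and Ibsp cells leave them out. No collagen was called in this contrast without the P25 or without the 8-week library (10 and 15 had an unadjusted p under 0.05), 1 was called without the library block, and DESeq2 called 10.

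Ibsp cells against the other 4 mesenchymal classes were higher in 2 collagens, Col25a1 and Col7a1 (1.51% of all genes), and the edgeR test called 0 lower (0.345% of all genes). At an unadjusted p under 0.05, 6 were higher and 4 lower, and DESeq2 called 2 higher and 1 lower. Both calls were lost without the library block, without P25 and without 8 weeks, and that of Col7a1 also without P15.

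Hand2 encodes a transcription factor of the lower jaw and marked the study's periapical cells. Hand2 cells were higher in Col12a1 (1.71% of all genes) and lower in Col13a1 (1.77%). Both calls were lost without the P25 or the 8-week library, where edgeR called 0 collagens (8 and 8 at an unadjusted p under 0.05).

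Rgs5 cells were higher in 4 collagens, Col4a1, Col4a2, Col9a2 and Col8a2 (4.75% of all genes), and lower in 2, Col24a1 and Col12a1 (1.1%). Without the Rgs5 sums of P25 and 8 weeks, the class is the P15 sum alone and is assumed to vary like the other classes, so that this fit gives no replicate check of it. Col4a1 and Col4a2 were past the threshold in it, Col12a1 was not, and Col9a2 and Col8a2 changed sign.

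Pappa2 encodes a protease of insulin-like growth factor binding proteins. Pappa2 cells were higher in 3 collagens, Col6a6, Col16a1 and Col3a1 (0.661% of all genes), and the edgeR test called 0 lower (0.147%). At an unadjusted p under 0.05, 9 were higher and 2 lower, and DESeq2 called 4 and 2. No collagen was called by edgeR without P25 or without 8 weeks (11 and 9 at an unadjusted p under 0.05), the calls of Col16a1 and Col3a1 were also lost without P15, and with sums of at least 100 cells, which leaves Pappa2 cells at P15 alone, only Col16a1 was called.

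Type I collagen was highest in Ifitm5 cells at the later ages. Col1a1 stood at 20249, 66867 and 40563 CPM in Ifitm5 cells at P15, P25 and 8 weeks. In Ibsp cells it was at 17922, 14293 and 11231 CPM, in Hand2 cells at 9300.2, 15844 and 16167 CPM, in Rgs5 cells at 5603, 22276 and 11956 CPM and in Pappa2 cells at 30538, 26414 and 14973 CPM. At P25 and 8 weeks the Ifitm5 sum lay above every other class, while at P15 the Pappa2 sum was higher. Against the other 4 classes the log2 fold change of Ifitm5 cells was 1.61 ± 0.33 (SE, edgeR adjusted p = 0.00497), and it lost the call without P25 and without 8 weeks. Against Ibsp cells alone it was 1.66 ± 0.47 (edgeR adjusted p = 0.0966), which did not pass. The study compared its own β and α clusters, which also held cells of an earlier age, and reported Col1a1 as enriched in β. Its top markers of the β cluster include Col1a1 and Col11a2, and Col1a1 is also among those of a precursor cluster.

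Col1a2, the α2 chain, ran beside it at 14512, 48171 and 29322 CPM in Ifitm5 cells, with a log2 fold change of 1.497 ± 0.35 (SE, edgeR adjusted p = 0.0113) against the other 4 classes. A molecule of type I collagen usually takes more α1 than α2 chains. Col1a1 exceeded Col1a2 in all 21 gate sums, with a ratio of CPM from 1.11 to 1.61 and a median of 1.33. In Ifitm5 cells this ratio stood at 1.40, 1.39 and 1.38, the narrowest range over the ages of any class.

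Type III collagen went the other way. Col3a1, the chain of the thinner fibrils of ligament and loose connective tissue, stood at 2528, 2020.5 and 1832 CPM in Ifitm5 cells. Ibsp cells held 7668, 7770.3 and 6600.3 CPM, Hand2 cells 6575, 10859 and 10852 CPM, and Rgs5 cells 6224, 12190.0 and 8508 CPM. Pappa2 cells held the most at every age, with 17939.9, 16149 and 12287 CPM. The Ifitm5 sums lay below those of every other mesenchymal class in each library, by a log2 fold change of -1.99 ± 0.32 (SE, edgeR adjusted p = 0.00107), and only the fit without P25 lost that call. Against Ibsp cells the log2 fold change was -1.60 ± 0.36 (SE, edgeR adjusted p = 0.0372), which 7 of 14 alternatives lost (adjusted p up to 0.827). In Pappa2 cells Col3a1 was higher than in the other 4 classes by 1.26 ± 0.26 (log2, SE, edgeR adjusted p = 0.0327).

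The ratio of Col3a1 to Col1a1 put both chains together. It was 0.125, 0.0302 and 0.0452 in Ifitm5 cells. Ibsp cells had 0.428, 0.544 and 0.588, Hand2 cells 0.707, 0.685 and 0.671, and Pappa2 cells 0.588, 0.611 and 0.821. The Rgs5 sum of P15 was the only one over 1, at 1.11. In thinned cells Col3a1 was detected in 86.3%, 77.4% and 78.1% of Ifitm5 cells and in 99.5%, 100% and 99.6% of Ibsp cells (98.5%, 97.9% and 95.3%, and 99.9%, 99.8% and 99.0%, unthinned), against 46.0%, 33.1% and 35.0% of Krt14 cells.

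Among the minor fibrillar chains, Col11a2 was highest in Ifitm5 cells in each library, and Col24a1 at P15 and P25. Type XI collagen sits inside fibrils and limits their diameter. Col11a2 stood at 248, 881 and 460.1 CPM in Ifitm5 cells, from 3457, 17622 and 1641 UMIs. It was at 66.2, 19.0 and 13.0 CPM in Ibsp cells and at 24.97 CPM or less in all sums of the Hand2, Rgs5 and Pappa2 cells. Each value is a single sum of a class and library, so these values hold no spread within a library. The log2 fold change was 5.58 ± 0.49 (SE, edgeR adjusted p = 4.73e-06) against the other 4 classes and 4.06 ± 0.76 (SE, edgeR adjusted p = 0.0161) against Ibsp cells. The latter was lost without the block, without P25 and without 8 weeks. Col11a2 was detected in 29.5%, 65.9% and 42.3% of thinned Ifitm5 cells (59.0%, 82.1% and 59.8% unthinned). Ibsp cells had 13.1%, 4.26% and 1.48% (31.6%, 10.2% and 5.41% unthinned), and Krt14 cells 1.15%, 1.56% and 2% (4.40%, 9.50% and 5.73% unthinned).

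Its partner Col11a1 was not called. Col11a1 was at 745, 1168 and 557 CPM in Ifitm5 cells, within the 175 to 1307 CPM of the other mesenchymal sums. The ratio of Col11a1 to Col11a2 was 3.01, 1.32 and 1.21 in Ifitm5 cells, 7.83, 15.7 and 24.3 in Ibsp cells and up to 227 in Pappa2 cells. Ifitm5 cells held the lowest ratio of the mesenchymal classes in each library.

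Col24a1, a fibrillar chain of developing bone, was at 45.9, 39.4 and 20.7 CPM in Ifitm5 cells. Hand2 cells had 12.5, 25.04 and 24.99 CPM, so that at 8 weeks the Ifitm5 sum was not the highest. In Ifitm5 cells the log2 fold change was 1.91 ± 0.29 (SE, edgeR adjusted p = 0.000577). In Rgs5 cells Col24a1 was at 1.999, 6.63 and 1.35 CPM and lower by a log2 fold change of -2.54 ± 0.42 (SE, edgeR adjusted p = 0.00282), which only the fit without 8 weeks lost.

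Col2a1, the chain of cartilage collagen, was called higher in Ifitm5 cells by 3.63 ± 0.59 (log2, SE, edgeR adjusted p = 0.00117), yet its levels were 86.5, 2.05 and 3.08 CPM. The P15 value came from 1207 UMIs in 71 of 742 cells, and the 3 cells with the most UMIs held 84.2% of them. At P25 and 8 weeks the Ifitm5 sums lay within the range of the other classes (0 to 7.02 CPM). A cartilage list (Acan, Sox9, Matn1 and Hapln1) summed to 97, 77 and 116 CPM in Ifitm5 cells and to 32 to 292 CPM in the other sums of the fit. Its part in the Col2a1 level was not tested.

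Type V collagen and Col27a1 differed less. Col5a1 and Col5a2, which start fibrils of type I collagen, were at 278 to 846 CPM and 891 to 2577 CPM over all mesenchymal sums, and neither was called between mesenchymal classes. Col5a3 stood out in the Rgs5 sum of P15 with 420.1 CPM, against 25.4 and 5.06 CPM in the later Rgs5 sums and at most 87.3 CPM elsewhere. Col27a1, a fibrillar chain of cartilage, was lower in Ifitm5 cells at 33.3, 36.2 and 21.03 CPM, with a log2 fold change of -1.36 ± 0.37 (SE, edgeR adjusted p = 0.0253), lost without the block, without P25 and without 8 weeks. Hand2 cells held 117, 117 and 98.1 CPM of it.

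**Figure D3:**
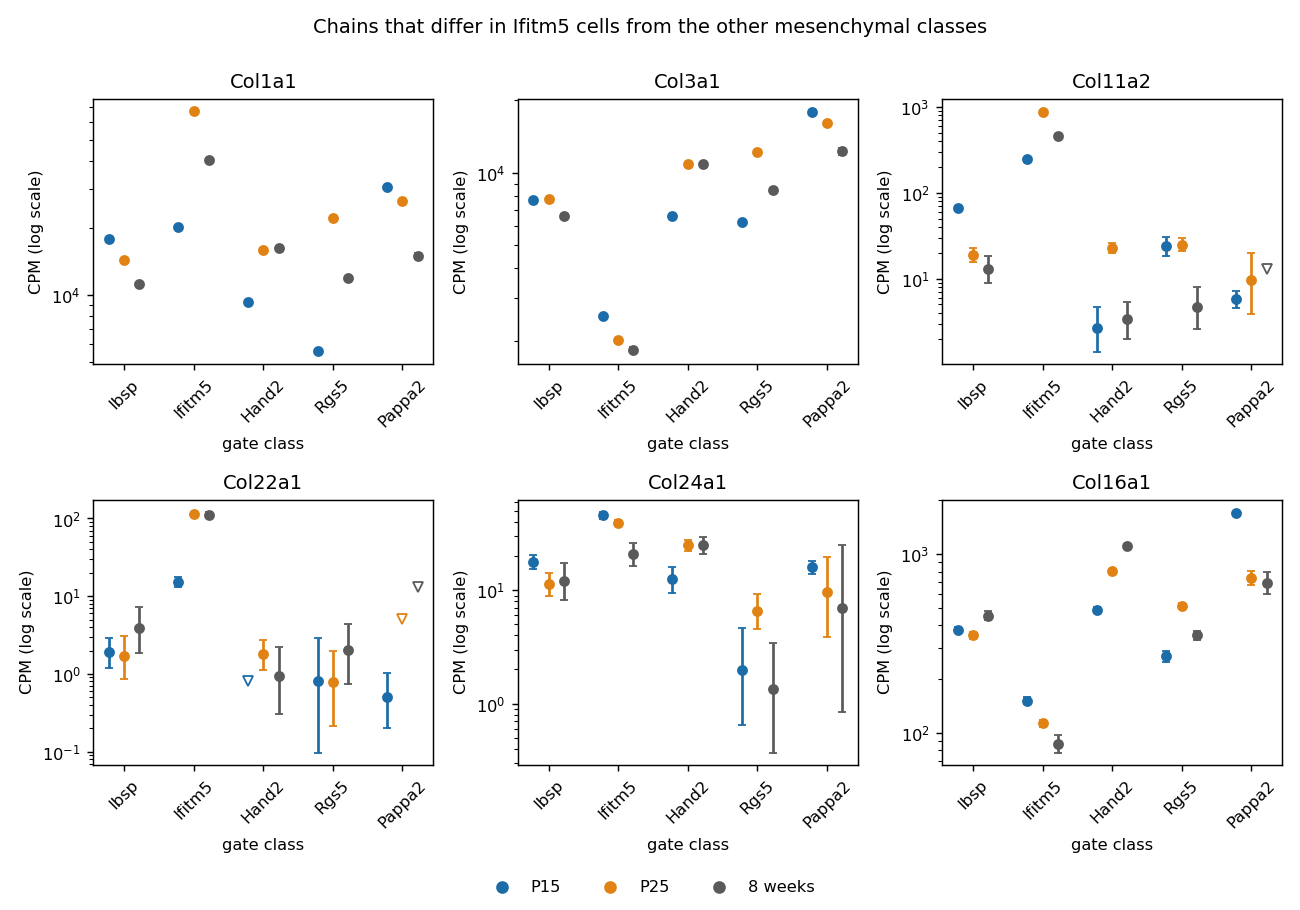
CPM on a log axis (y) of 6 chains in the 5 mesenchymal classes (x), with 1 point for each library; bars are exact 95% Poisson intervals for counting error, and an open triangle marks a sum without a UMI at its upper limit. Col11a2 (248 to 881 CPM) and Col22a1 (15.3 to 113 CPM) are highest in Ifitm5 cells in each library, Col3a1 and Col16a1 are lowest there, and Col1a1 at P15 is higher in Pappa2 cells.

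Of the FACITs, Col22a1 had the largest log2 fold change in Ifitm5 cells. Type XXII collagen is known from tissue junctions such as that of muscle and tendon. Col22a1 was at 15.3, 113 and 111 CPM in Ifitm5 cells, from 213, 2251 and 395 UMIs. No other mesenchymal sum exceeded 3.93 CPM, the Ibsp value at 8 weeks. The log2 fold change was 5.88 ± 0.41 (SE, edgeR adjusted p = 6.87e-07) against the other 4 classes and 4.73 ± 0.61 (SE, edgeR adjusted p = 0.00182) against Ibsp cells, and leaving out P25 or 8 weeks lost the second of these (adjusted p up to 0.147). At P15 the UMIs fell in 50 of 742 cells, and the top 3 cells held 39.4%. At P25 and 8 weeks they fell in 452 of 771 and 134 of 276 cells, with 3.15% and 6.84% in the top 3.

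Col12a1, a FACIT of ligament and tendon fibrils, was highest in Hand2 cells in each library, at 1448, 2132 and 2783 CPM. Ibsp cells had 1402, 1244 and 1378 CPM, and the lead at P15 was small. In Hand2 cells the log2 fold change was 1.14 ± 0.28 (SE, edgeR adjusted p = 0.0301). Beside the losses without P25 and without 8 weeks, it fell under the size threshold with cells of several gates assigned (0.93) and missed the p threshold with sums of at least 100 cells (edgeR adjusted p = 0.0600). Rgs5 cells held 468, 672 and 442 CPM and were lower by -1.39 ± 0.33 (log2, SE, edgeR adjusted p = 0.0189), a call lost without any 1 of the 3 libraries. Ifitm5 cells held 737, 495 and 555 CPM and were not called.

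Col16a1, another FACIT, had its highest value in Pappa2 cells at P15 (1708 CPM). At P25 and 8 weeks Pappa2 cells held 738 and 692 CPM, below the 803 and 1109 CPM of Hand2 cells. Pappa2 cells were higher than the mean of the other 4 classes by 1.51 ± 0.30 (log2, SE, edgeR adjusted p = 0.0261), a call lost without doublets (adjusted p = 0.0527) and without any 1 of the 3 libraries. Ifitm5 cells held 151, 113 and 86.9 CPM, the lowest of the mesenchymal classes in each library, with a log2 fold change of -2.14 ± 0.37 (SE, edgeR adjusted p = 0.0016). Only the fit without P25 lost this call.

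Col14a1, a FACIT of skin and tendon, was scattered. Pappa2 cells had 10.3, 64.9 and 362 CPM, but the last value came from 103 UMIs in 7 of 21 cells, with 65.1% in the top 3. No mesenchymal contrast called it. Col9a2, a chain of cartilage type IX collagen, was at 51.2, 197 and 112 CPM in Rgs5 cells. At P15 this lay under the 94.6 CPM of Pappa2 cells, and the call (log2 fold change 2.36 ± 0.50, SE, edgeR adjusted p = 0.00973) turned to -0.62 (adjusted p = 0.653) without the late Rgs5 sums, which lacked mural markers.

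Type VI collagen, whose beaded filaments surround cells, was called lower in Ifitm5 cells for all 3 major chains, though 5 of 14 alternatives lost each of the Col6a1 and Col6a2 calls. Col6a1 was at 329, 279.6 and 244 CPM in Ifitm5 cells and at 735, 919 and 989.5 CPM in Ibsp cells. The log2 fold change against Ibsp cells was -1.44 ± 0.32 (SE, edgeR adjusted p = 0.0372), and it was lost without the block, without P25 and without 8 weeks. Against all 4 classes it was -1.05 ± 0.27 (SE, edgeR adjusted p = 0.0202), with Pappa2 cells of P15 lower at 295 CPM. Both the Col6a1 and the Col6a2 call were lost with gates at 1 time the library mean, with sums of at least 100 cells, without P25 and without 8 weeks. Col6a2 was at 284, 216 and 185 CPM, above the 224 CPM of Pappa2 cells at P15, with -1.11 ± 0.32 (SE, edgeR adjusted p = 0.0363) and Col6a3 with -1.72 ± 0.35 (SE, edgeR adjusted p = 0.00535), at 73.3, 63.9 and 30.6 CPM against 109 to 436 CPM in the other mesenchymal sums. Col6a1 and Col6a2 kept a ratio of 1.04 to 1.42 over 19 gate sums, while Col6a3 to Col6a1 ranged from 0.125 to 0.561.

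The other type VI chains were rare. Col6a4 never exceeded 4.29 CPM. Col6a6 was called higher in Pappa2 cells by 5.42 ± 0.90 (log2, SE, edgeR adjusted p = 0.0149) on levels of 0.0712, 19.3 and 87.8 CPM, with 1, 14 and 25 UMIs. At P25 all 14 UMIs lay in 1 of the 39 cells, and at 8 weeks 28.6% of the 21 cells held a UMI (unthinned), so the call rests on very few cells. With gates at 1 time the library mean it was lost (adjusted p = 0.206), as it was without P25 and without the late Rgs5 sums. With sums of at least 100 cells, hence P15 alone for this class, the value was -0.94 (adjusted p = 1.0). Col6a5 reached 94.8 CPM in the same 21 cells of 8 weeks.

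The basement membrane chains marked the Rgs5 cells of P15. Type IV collagen makes the sheet that pericytes share with endothelium. Col4a1 was at 3076, 100.3 and 24.3 CPM in Rgs5 cells and Col4a2 at 1609, 66.5 and 32.7 CPM. In the other mesenchymal sums Col4a1 ranged from 2.52 to 112 CPM. The P15 value thus stood alone, while at P25 and 8 weeks Pappa2 cells had more. The log2 fold change was 3.58 ± 0.90 (SE, edgeR adjusted p = 0.0244) for Col4a1 and 3.24 ± 0.74 (SE, edgeR adjusted p = 0.0155) for Col4a2. Without the late Rgs5 sums it was 5.64 and 5.14, and without P15 it was 0.53 and 0.69; without P15 and without P25 both calls were lost. Col4a1 was detected in 91.9% of the thinned Rgs5 cells of P15, 18.7% at P25 and 6.44% at 8 weeks (91.2%, 38.8% and 17.8% unthinned), against 3.17% and 3.94% of Ptprc cells. Among other thinned mesenchymal cells it was in 6.20%, 23.1% and 20% of Pappa2 cells and 19.0%, 8.98% and 4.50% of Hand2 cells. Ibsp cells had 8.31%, 5.76% and 4.80%, and Ifitm5 cells 3.80%, 2.11% and 0.377%. At P25 and 8 weeks Pappa2 cells thus lay above Rgs5 cells. Endothelial genes (Pecam1, Cdh5, Kdr, Flt1, Vwf and Egfl7) summed to 37 CPM in the P15 Rgs5 sum.

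The pair kept a ratio of Col4a1 to Col4a2 between 0.742 and 1.91 (median 1.41) over the 17 gate sums with enough UMIs of both. Col18a1, the basement membrane multiplexin that holds endostatin, was at 240.2, 46.0 and 9.11 CPM in Rgs5 cells and was not called. Its relative Col15a1 was at 26.2, 101 and 102 CPM in Ifitm5 cells and higher there by 1.86 ± 0.50 (log2, SE, edgeR adjusted p = 0.0238), although Ibsp cells at P15 (38.0 CPM) and Pappa2 cells at P25 (110.4 CPM) had more. That call was lost without the block, without P25 and without 8 weeks.

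Col13a1 and Col25a1 span the membrane. Col13a1, a collagen of adhesion sites, was at 158 CPM in Pappa2 cells at P15, from 2216 UMIs in 487 of 680 cells. The later Pappa2 sums held 11.0 CPM and no UMI. Ifitm5 cells were steadier, at 53.8, 28.7 and 54.7 CPM, with a log2 fold change of 2.98 ± 0.51 (SE, edgeR adjusted p = 0.00164). Hand2 cells had 6.69, 0.60 and 0 CPM and a log2 fold change of -3.90 ± 0.74 (SE, edgeR adjusted p = 0.00778). The Ifitm5 and Hand2 calls were both lost without the block, without P25 and without 8 weeks.

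Col25a1, a membrane collagen that motor axons need for muscle innervation, was at 31.2, 19.8 and 24.8 CPM in Ibsp cells. At P15 it was nearly as high in Ifitm5 cells (27.9 CPM) and Hand2 cells (25.7 CPM), and at P25 and 8 weeks every other mesenchymal sum was at 6.44 CPM or less. In Ibsp cells the log2 fold change was 2.51 ± 0.44 (SE, edgeR adjusted p = 0.00897). Cells with both Ibsp and Hand2, which were not in the fit, had 64.1, 31.4 and 28.9 CPM.

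Col7a1, the chain of the anchoring fibrils under epithelia, was at 68.8, 63.4 and 79.4 CPM in Ibsp cells, above each other mesenchymal sum (at most 48.5 CPM, Hand2 cells of P25). This gave a log2 fold change of 2.22 ± 0.44 (SE, edgeR adjusted p = 0.0159). Of the network collagens, Col8a1 was at 29.8 to 279.9 CPM in mesenchymal sums and was not called, and Col8a2 at 15.2, 63.4 and 57.0 CPM was called higher in Rgs5 cells by 2.13 ± 0.49 (log2, SE, edgeR adjusted p = 0.0158), a value of -0.11 (adjusted p = 1.0) without the late Rgs5 sums. Col10a1, a marker of hypertrophic cartilage, held 15 UMIs in all gate sums together.

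**Figure D4:**
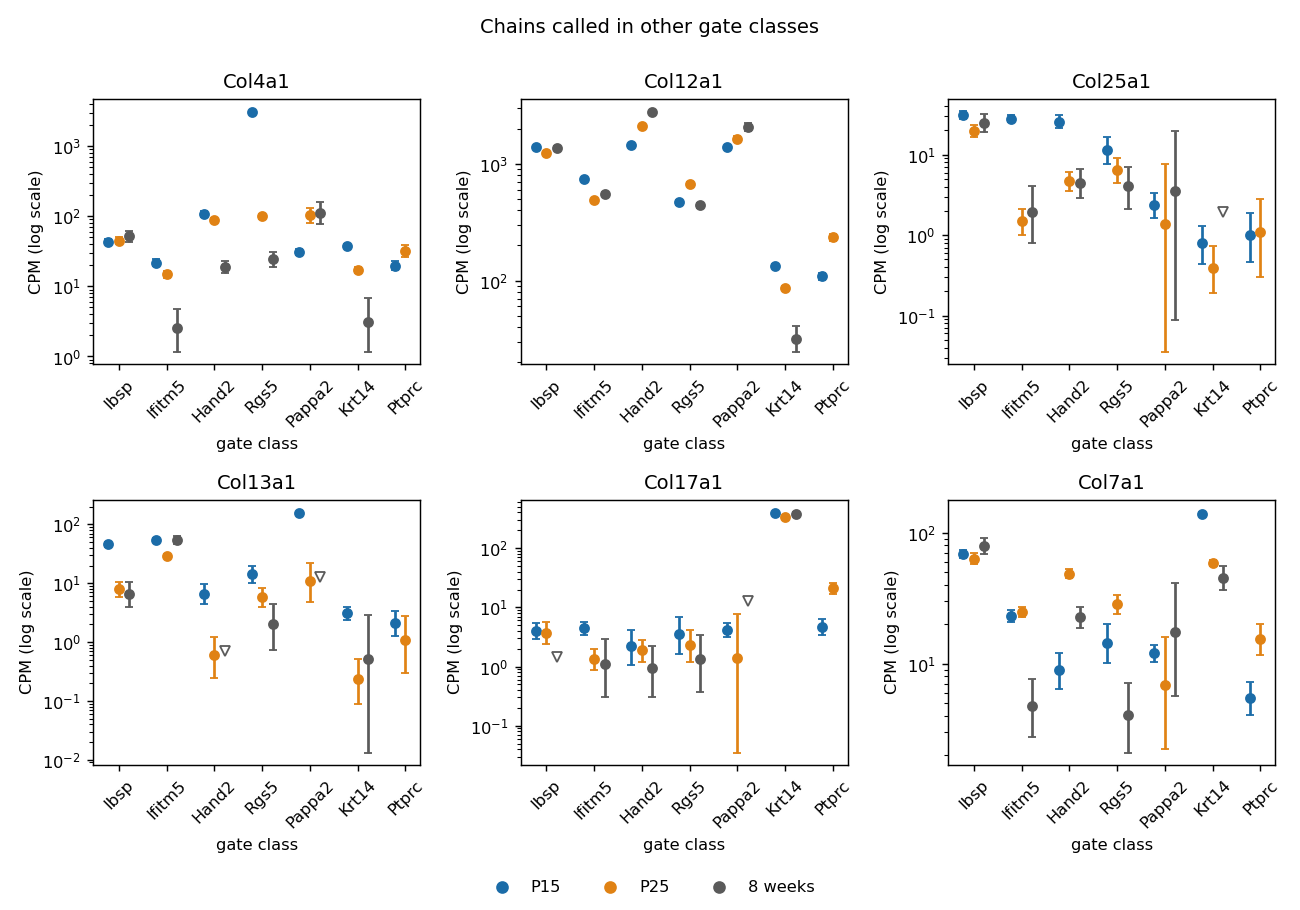
CPM on a log axis (y) of 6 chains in the 7 gate classes (x), with 1 point for each library; bars are exact 95% Poisson intervals for counting error and open triangles mark sums without a UMI at their upper limit. Col4a1 in the Rgs5 sum of P15 (3076 CPM) and Col17a1 in Krt14 cells (386, 329.7 and 384 CPM) stand apart from all other sums, and Col12a1 is highest in Hand2 cells.

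The enzymes and carriers that make collagens were counted from a list of 35 genes, of which 34 were tested. Their calls come from the fit of all sums, and no alternative run, such as one without a library, is given for them. Ifitm5 cells against the other 4 mesenchymal classes were higher in 10 (4.04% of all genes) and lower in 2 (3.46%). The higher ones were cross-linking enzymes and their relatives (Loxl4 by 3.10, Lox by 2.46, Loxl3 by 1.57 and Loxl2 by 1.39 on the log2 scale), the telopeptide lysyl hydroxylase Plod2 by 1.57, the prolyl hydroxylase subunit P4ha2 by 1.14, the propeptide-processing genes Pcolce by 1.25 and Adamts14 by 1.54, the matrix protein Sparc by 1.53 and Creb3l1, a transcription factor of the secretory pathway, by 1.11. Plod2 had the smallest adjusted p of these (6.1e-05, edgeR), at mean levels of 501 CPM against 219 CPM. P4ha3 (-2.33) and Loxl1 (-1.78), a lysyl oxidase of elastic fibers, were lower. Against Ibsp cells Plod2 was higher (1.14) and P4ha3 lower (-1.80), out of 34, where 0.984% and 0.448% of all genes were called.

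In the other mesenchymal classes fewer of these genes were called. Of the 34, Ibsp cells had 0 higher and 0 lower by the edgeR test (0 and 1 at an unadjusted p under 0.05; 1.51% and 0.345% of all genes were called). Hand2 cells were higher in P4ha3 (1.71% of all genes) and lower in Loxl3, Lox, Plod1 and Pcolce (1.77%), with Lox at a mean of 44.7 CPM against 192 CPM. Rgs5 cells were higher in Loxl3 (4.75% of all genes) and lower in Plod2, Loxl2 and Creb3l1 (1.1%). Pappa2 cells were higher in P4ha3 and Loxl1 (0.661% of all genes), the 2 genes that were lower in Ifitm5 cells.

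Krt14 cells, which held the epithelial markers, were lower in most collagens and higher in Col17a1, Col4a6, Col7a1, Col4a5 and Col18a1. Against the 5 mesenchymal classes, 5 collagens were higher (15.3% of all genes tested were called higher) and 25 lower (19.7%), with a median log2 fold change of -2.94 over the 38 collagens and -0.01 over all genes. The share called higher was thus no larger among collagens than among all genes. Col17a1, the transmembrane chain of the hemidesmosome, was at 386, 329.7 and 384 CPM, against at most 4.44 CPM in any mesenchymal sum. Its log2 fold change was 7.42 ± 0.31 (SE, edgeR adjusted p = 1.39e-10). It was detected in 61.7%, 53.3% and 55.0% of the thinned Krt14 cells (71.6%, 72.6% and 58.6% unthinned, median 12894.5, 28349 and 8091 UMIs) and in 1.15% and 1.48% of Ptprc cells (median 10045.5 and 15340 UMIs).

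Col4a6 was higher by 4.06 ± 0.69 (log2, SE, edgeR adjusted p = 0.000151) at low levels of 3.01, 4.51 and 5.20 CPM, and its neighbor Col4a5 by 1.48 ± 0.51 (log2, SE, edgeR adjusted p = 0.0208) at 19.2, 10.1 and 7.28 CPM, within the range of the mesenchymal sums. Both encode basement membrane chains that pair in epithelia. Col7a1 was at 139, 58.3 and 45.2 CPM and higher by 1.99 ± 0.41 (log2, SE, edgeR adjusted p = 0.000805), although Ibsp cells had more at P25 and 8 weeks and the call was lost without P15. The call of Col4a5 was lost without P25. Col18a1 was at 98.4, 71.8 and 54.6 CPM, with 1.47 ± 0.50 (log2, SE, edgeR adjusted p = 0.0208), a call lost without the block, without P25 and without 8 weeks. In each library a mesenchymal class had more Col18a1. These were Rgs5 cells at P15 (240.2 CPM) and Pappa2 cells at P25 and 8 weeks (87.0 and 63.2 CPM).

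The lower chains in Krt14 cells included all that dominate mesenchyme. Col1a1 was at 1183, 1411 and 683 CPM, with a log2 fold change of -4.05 ± 0.47 (SE, edgeR adjusted p = 5.41e-06), and Col3a1 at 577, 618 and 174 CPM, with -3.95 ± 0.37 (SE, edgeR adjusted p = 6.31e-07). Col11a1 (-4.17), Col1a2 (-4.14), Col24a1 (-3.85), Col5a2 (-3.84), Col25a1 (-3.80), Col13a1 (-3.76) and Col6a2 (-3.74) were lower too. Col6a6, also among the 25, had no UMI in the 3 Krt14 sums, so no fold is given. The ratio of Col3a1 to Col1a1 was 0.488, 0.438 and 0.254 in Krt14 cells, against 0.501, 0.334 and 0.475 in all cells of the libraries. The P15 and 8-week ratios lay below those of their libraries, and the P25 ratio lay above. Free RNA was not measured, and its part in these levels was not tested. Of the 34 processing genes tested 25 were lower (19.7% of all genes), and the prolyl 3-hydroxylase P3h2 alone was higher (15.3%), by 6.02 ± 0.64 (log2, SE, edgeR adjusted p = 2.45e-06) at a mean of 43.9 against 1.94 CPM.

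Ptprc cells, which held the immune markers, were compared at P15 and P25. Against the 5 mesenchymal classes 2 collagens were higher (20.3% of all genes) and 18 lower (17% of all genes), with a median log2 fold change of -2.12 against -0.05 over all genes. Both higher calls rest on P25. Col14a1 was at 8.38 CPM at P15 and 277 CPM at P25, the latter from 1003 UMIs in 106 of 204 cells with 9.07% in the top 3. Its log2 fold change of 4.26 ± 1.16 (SE, edgeR adjusted p = 0.00632) turned to -0.46 (adjusted p = 0.885) without P25. In thinned cells it was detected in 1.58% and 34.5% of Ptprc cells, against 0.679% and 0.132% of Ifitm5 cells (5.03% and 52.0%, and 2.70% and 0.259%, unthinned). Thinned Krt14 cells had 8.455% and 0.990%, Rgs5 cells 4.29% and 1.17% and Pappa2 cells 0.739% and 10.3%. At P15 Ptprc cells were thus not the highest. Col17a1, higher by 2.09 ± 0.46 (log2, SE, edgeR adjusted p = 0.00149), came at P25 from 76 UMIs, of which 1 cell held 82.9%. Col1a1 was at 1876 and 3571 CPM, lower by -2.94 ± 0.53 (log2, SE, edgeR adjusted p = 0.000324). The ratio of Col3a1 to Col1a1 was 0.531 and 0.381, above that of the whole library at both ages. The part of free RNA in these levels was not tested. Of the 34 processing genes tested 22 were lower (17% of all genes) and P3h2 was higher (20.3%).

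Between ages there is 1 library each, so the 8-week over P15 ratios below are descriptions of these libraries with no test. A gene was counted when its CPM differed by 2-fold or more and the higher sum held at least 50 UMIs. The intervals are exact 95% intervals for counting error alone. Since a gate follows the mean of its library, its level in UMIs per 10000 differed between P15 and 8 weeks, at 53.9 and 145.9 for Ibsp, 0.980 and 1.30 for Ifitm5, 0.201 and 1.503 for Hand2, 3.79 and 0.653 for Rgs5, 0.525 and 0.0629 for Pappa2 and 30.03 and 8.14 for Krt14. A cell also needed at least 2 UMIs of the gate gene, so these levels are not the whole cut. For Hand2 at P15 and Pappa2 at 8 weeks, 0 cells lay within 2-fold above or below the level. There the minimum of 2 UMIs set the cut, which then depends on the UMIs of a cell. The ages are thus compared on classes cut at different levels. The P25 values, given above, complete each series.

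In Ifitm5 cells 4 of 34 collagens were higher at 8 weeks than at P15 (2.15% of all genes counted were) and 16 were lower (7.23%). With gates at 4 times the library mean, 2 of 30 collagens were higher and 13 lower (203 and 665 of all 9846 genes counted). Without doublets 2 of 31 were higher and 13 lower (220 and 722 of 10010 genes). With gates at 1 time the mean they were 4 and 12 of 34 (221 and 787 of 10457 genes). Phex, Bglap and Dmp1 summed to 7086 CPM at P15 and 28750 CPM at 8 weeks in these cells, and their part in the ratios was not tested. The higher ones were Col22a1 at 7.26-fold (6.13 to 8.61), Col15a1 at 3.88-fold (3.35 to 4.50), Col1a2 at 2.02-fold (2.01 to 2.04) and Col1a1 at 2.003-fold (1.99 to 2.02). All 4 had their P25 level at or near the 8-week one or above it. The lowest ratio was that of Col26a1, a chain with an EMI domain, from 1222 UMIs (87.6 CPM) at P15 to 287 (14.4 CPM) at P25 and 1 (0.28 CPM) at 8 weeks, a ratio of 0.0032 (8.1e-05 to 0.0179). The P15 UMIs of Col26a1 were spread over 303 of 742 cells. Col23a1 (0.0219), Col2a1 (0.0357), Col25a1 (0.0702), Col9a3 (0.0712), Col14a1 (0.0921) and Col4a1 (0.116) were also among the 16. Of the collagen UMIs of Ifitm5 cells, Col1a1 made up 48.0%, 53.9% and 53.2% and Col1a2 34.4%, 38.8% and 38.4%.

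Ibsp cells had 0 of 31 collagens higher at 8 weeks (2.33% of all genes) and 8 lower (5.1%). Those lower were Col18a1 (ratio 0.301), Col11a2 (0.196), Col9a3 (0.16), Col13a1 (0.146), Col9a2 (0.142), Col23a1 (0.109), Col2a1 (0.0449) and Col9a1, with 64 UMIs at P15 and none at 8 weeks, at least 4.66-fold lower when 3 counts are taken as the floor of the 8-week sum. Col1a1 stood at 0.627 (0.619 to 0.634) of its P15 level.

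Hand2 cells had 4 of 27 collagens higher (5.82% of all genes) and 9 lower (4.55%). With gates at 4 times the mean 2 of 26 were higher (444 of all 8382 genes). Col7a1 was at 2.53-fold (1.75 to 3.71), Col16a1 at 2.27-fold (2.17 to 2.39), Col14a1 at 2.14-fold (1.29 to 3.69) and Col24a1 at 2-fold (1.45 to 2.79). The lower ones ran from Col18a1 (0.337) to Col4a5 (0.0521) and included Col4a1 (0.174) and Col4a2 (0.179). The other periapical markers summed to 3698 CPM at P15 and 7073 CPM at 8 weeks in these cells, and their part in the ratios was not tested.

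Rgs5 cells had 3 of 24 collagens higher (8.66% of all genes) and 11 lower (10.9%). With gates at 1 time the library mean 0 of 26 were higher and 13 lower (480 and 836 of all 7905 genes). At 4 times the mean 5 of 24 were higher (632 of 6885 genes), and without doublets also 5 of 24 (658 of 6789 genes). The mural list differed with it, at 3492 and 440.5 CPM, and its part was not tested. Col4a1 stood at 0.0079 (0.00617 to 0.00996) of its P15 level, Col5a3 at 0.012 (0.00672 to 0.0199) and Col4a2 at 0.0203 (0.0164 to 0.0249). Col8a2 was at 3.75-fold, Col9a2 at 2.19-fold and Col1a1 at 2.13-fold.

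Pappa2 cells had 11 of 31 collagens higher (11.4% of all genes) and 11 lower (13.8%), on 680 cells at P15 and 21 at 8 weeks. The intervals of 4 of these 22 included 1. With gates at 4 times the mean 7 of 29 were higher and 9 lower (1083 and 1223 of all 10197 genes). Col14a1 was at 35.1-fold, Col8a1 at 8.71-fold (6.71 to 11.2) and Col6a1 at 2.91-fold (2.55 to 3.31). Col1a1 was at 0.49 (0.476 to 0.505) and Col16a1 at 0.405 (0.35 to 0.466) of the P15 level. Col13a1 had 2216 UMIs at P15 and none at 8 weeks, at least 14.97-fold lower. Col11a2 and Col17a1, at 5.76 and 4.20 CPM at P15, also had none at 8 weeks. The floor of the 8-week sum, 10.5 CPM, lay above both P15 levels. Their zeros, though counted as lower, thus do not show a lower level.

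Krt14 cells had 0 of 29 collagens higher (4.19% of all genes) and 21 lower (13.9%). With gates at 1 time the mean 1 of 29 was higher (478 of all 11159 genes). Col17a1 was not among the 21 lower ones, at 386 and 384 CPM. The 21 included Col7a1 (0.326), Col3a1 (0.301), Col12a1 (0.238) and Col14a1 (0.139), the last from 919 UMIs in 178 of 1296 cells at P15. Col27a1 and Col8a2 had no UMI at 8 weeks, at least 5.24-fold and 2.44-fold lower. These were 1296 and 157 cells with medians of 12894.5 and 8091 UMIs. Ratios on the TMM scale, a normalization between the 2 sums, shifted by -0.19 to 0.16 on the log2 scale. The counts on it were 5 and 15 for Ifitm5, 3 and 9 for Hand2, 5 and 11 for Rgs5 and 10 and 12 for Pappa2 cells (higher and lower). Those of Ibsp and Krt14 cells were the same as before. Shares of all genes on the TMM scale are not given.

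**Figure D5:**
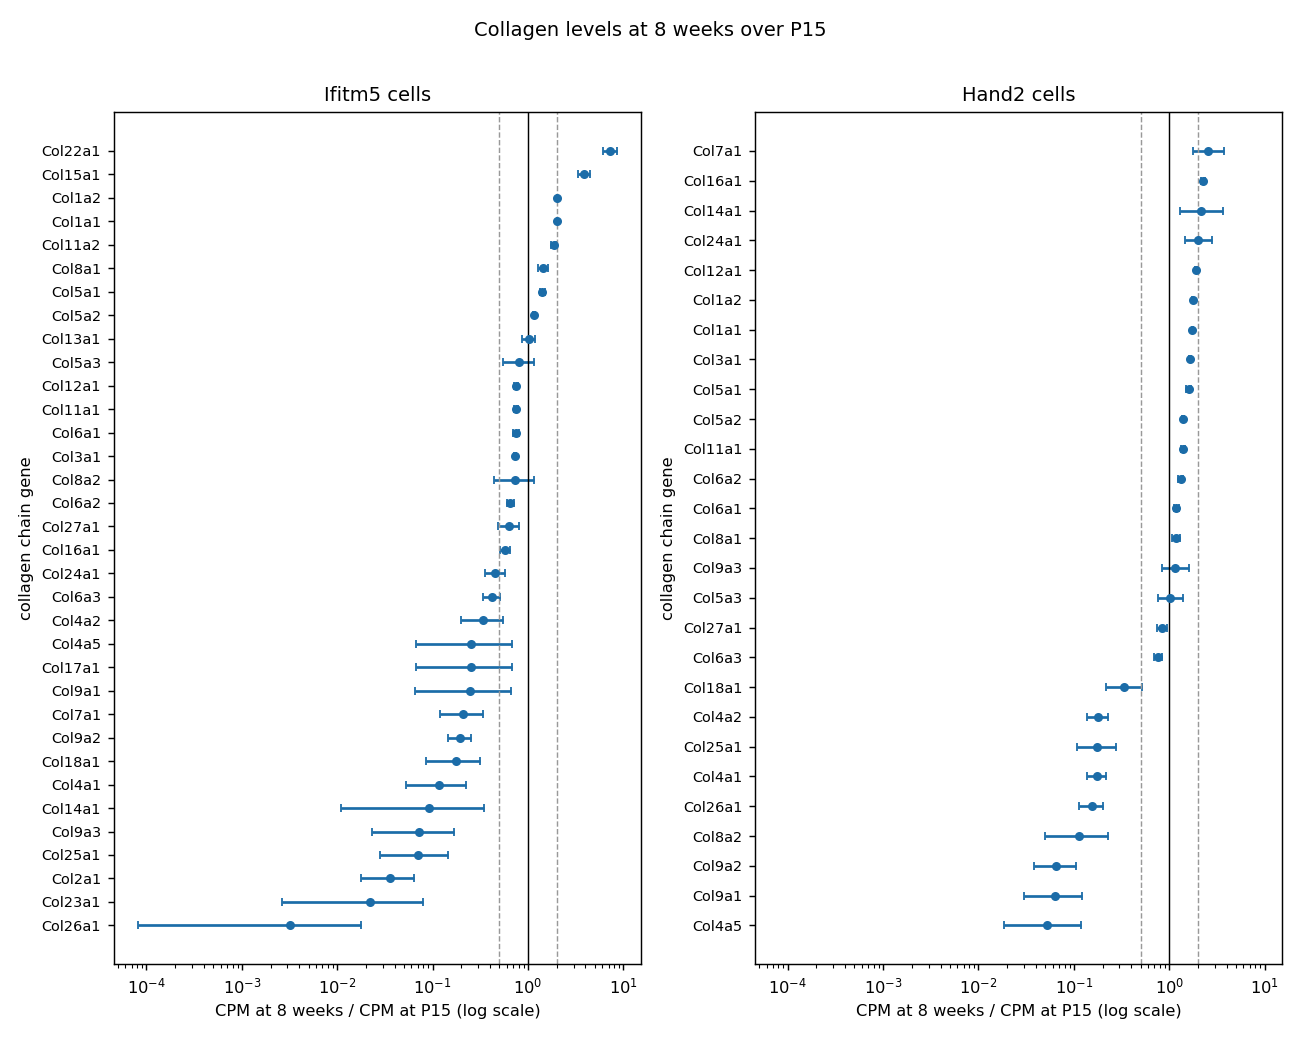
Ratio of CPM at 8 weeks to CPM at P15 (x, log axis) for each collagen with at least 50 UMIs in the higher sum, in Ifitm5 cells (left) and Hand2 cells (right); bars are exact 95% intervals for counting error, the solid line marks a ratio of 1 and dashed lines mark 2-fold. In Ifitm5 cells Col22a1, Col15a1, Col1a2 and Col1a1 lie at or beyond the upper 2-fold line and 16 chains below the lower one, down to Col26a1 at 0.0032, and in Hand2 cells 4 and 9 do.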

How the data were processed

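The deposited matrices hold raw UMI counts per gene and cell, which the authors made from 10x Chromium 3′ v3.1 reads with Cell Ranger on mm10 (6.1.2 in the submitters' processing notes and in the P15 and 8-week headers, 6.0.1 in the P25 header). The P15 and 8-week references list 22056 genes and that of P25 lists 32293, and the 21446 shared by identifier were used. All cells of the filtered matrices entered, and doublets were kept except in an alternative: the automatic Scrublet calls (408, 0 and 6) had not worked in 2 libraries, so the top 6% of cells by score were left out there.

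UMIs were summed over each gate class and library, leaving out sums under 20 cells, and 20 sums were fitted with edgeR 4.0.16 (R 4.3.3; TMM, filterByExpr, robust quasi-likelihood test, 11 residual degrees of freedom) with class and library as terms and Benjamini-Hochberg adjustment over 13613 genes. The classes of a library come from the same pooled mice, so the library was a block; deviations of the sums of a library from their class means had a median correlation of 0.28, 0.34 and 0.26, the lowest pair at 0.0799. On simulated counts for Ifitm5 against Ibsp cells (13036 genes), all 200 changed genes were called, with 5 others. The fold size set for these 200 genes is not given. How many genes would be recovered at the spread between the real libraries was not tested. DESeq2 1.42.0 was an alternative. Other tools were Python 3.11.15, numpy 2.4.6, pandas 2.3.3, scipy 1.17.1, scanpy 1.11.5 and matplotlib 3.10.9. Intervals and floors (3 counts per sum) cover counting error only.

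Named were the collagens called in a contrast, up to 10 in each direction by size, listed chains with at least 50 UMIs in a sum, and 2-fold differences between P15 and 8 weeks; others named were chosen after their values were seen. The members and gene lists were chosen with earlier results of these data known.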

Additional observations from a re-analysis of the deposited data

Results flagged for a closer look

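For 3 chains the 8-week and P15 levels differed in opposite directions in Ifitm5 and Hand2 cells. The 8-week over P15 ratio of CPM was 0.207 in Ifitm5 cells and 2.53 in Hand2 cells for Col7a1, 0.0921 and 2.14 for Col14a1, and 0.453 and 2 for Col24a1. With 1 library an age, the difference between the classes was not tested. In Hand2 cells at 8 weeks Col14a1 rested on 56 UMIs in 14 of 470 cells, with 71.4% in the top 3, and Col7a1 at P25 on 566 UMIs with 50.2% in the top 3. For Col26a1 the CPM of Ifitm5 cells over that of Ibsp cells took values of 2.80, 0.528 and 0.0127 in the P15, P25 and 8-week libraries. The direction differed between the ages, which was not tested either.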

How the results depend on the processing

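Collagen calls depended most on which libraries entered. Leaving out 1 library in turn, the collagens called ranged from 0 to 14 for Ifitm5 against Ibsp cells, 0 to 3 for Ibsp, 4 to 24 for Ifitm5, 0 to 9 for Hand2, 1 to 6 for Rgs5, 0 to 4 for Pappa2, 19 to 32 for Krt14 and 14 to 20 for Ptprc cells. Shares of all genes called in the runs of this section are not given, so the counts are not set against all genes. With DESeq2 the counts were 10 for Ifitm5 against Ibsp, 22 for Ifitm5, 8 for Hand2 and 6 for Pappa2 cells. With no replicate block (no pairing by library) they were 1 for Ifitm5 against Ibsp, 0 for Ibsp (6 at an unadjusted p under 0.05) and 1 for Hand2 cells, and of the 58 named calls 45 kept direction and threshold and 13 lost the threshold. Without P15, 49 of the 58 calls kept both. Without P25, 25 of 58 did and 1 turned its sign, and without 8 weeks 34 of 56 did. With gates at 4 times the library mean Hand2 cells had 5, without doublets 4, and Pappa2 cells 1 without doublets and 5 with cells of several gates assigned. In 2 settings chosen after seeing the data, leaving out the Rgs5 sums of P25 and 8 weeks gave 10 for Ifitm5 against Ibsp and 6 for Hand2 cells, and keeping sums of at least 100 cells gave 8 for Ifitm5 against Ibsp, 5 for Ibsp, 1 for Hand2 and 1 for Pappa2 cells. The sign turned for Col9a2 (-0.62) and Col8a2 (-0.11) in Rgs5 cells without the late Rgs5 sums, for Col6a6 (-0.94) in Pappa2 cells with sums of at least 100 cells, and for Col14a1 in Ptprc cells without P25 (-0.46, against 5.51 without P15); the cause was not tested. All 58 calls kept direction and threshold with DESeq2, with its size factors in edgeR and without the filter on low counts. Time counts of Pappa2 cells could not be computed with gates at 1 time the library mean or without doublets, where under 20 cells were left.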

Other observations

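The cells that passed no gate (8018, 5133 and 3298) held more of some collagens than any gate class of their library. Col26a1 stood at 132 CPM in them at P15, against 87.6 CPM in Ifitm5 cells, the highest class. Col9a2 was at 177 CPM at P15 against 94.6 CPM in the highest class, and Col9a3 at 67.8 against 19.7 CPM. At P25, Col7a1 was at 161 against 63.4 CPM, Col18a1 at 188 against 87.0 CPM, Col4a1 at 221 against 104 CPM, Col4a2 at 158 against 71.8 CPM and Col6a3 at 400.1 against 287 CPM. These cells were given no name.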
